A study of Mus musculus with 20 samples.

Results

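Livers that lacked Cpt2 together with Ppara were compared with livers that lacked Cpt1a, Cpt1b and Cpt2, across all genes measured by RNA sequencing. The libraries were chosen by their labels alone, with no use of any measured value: 8 of the 20 libraries of the series carried these genotypes, 4 in each group. The Cpt2PparaDKO group had a liver-specific double knockout of Ppara, which the labels write as PPAR, and Cpt2. The TKO group had a liver-specific triple knockout of Cpt1a, Cpt1b and Cpt2. Both groups therefore lacked Cpt2, and they differed in Ppara on one side and in Cpt1a and Cpt1b on the other. The other libraries, 4 each, came from livers without Cpt2 alone (Cpt2KO), livers without Cpt1a and Cpt1b (Cpt1DKO), and livers labelled as a triple floxed control (Control), and they are given only where a level needs a place. All livers were taken after a 24 h fast. The labels name neither the Cre driver nor the age or sex of the mice, and nothing in them ties the 4 libraries of a group to separate animals, so the spread behind each p-value is that between libraries and may be technical in part. The labels do not say whether the groups shared litters or lines, and line and genotype cannot be told apart.

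CPT1 and CPT2 form the carnitine shuttle. CPT1 on the outer mitochondrial membrane, which liver makes mostly from Cpt1a and muscle mostly from Cpt1b, joins long-chain acyl groups to carnitine, a translocase carries the acylcarnitine inwards, and CPT2 on the inner membrane returns it to acyl-CoA for beta-oxidation. PPARalpha, the product of Ppara, is a nuclear receptor that binds fatty acids and, paired with RXR, switches on genes for fatty acid uptake, mitochondrial and peroxisomal oxidation and ketone body synthesis in the fasted liver. The endoplasmic reticulum of hepatocytes folds most plasma proteins, and its chaperones are induced through the transcription factors ATF6 and XBP1 when folding load exceeds capacity.

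Total counts were 17926295 to 36452673 per library in Cpt2PparaDKO livers and 15984190 to 20273303 in TKO livers, with Cpt2PparaDKO replicate 1 the deepest. Levels below are TMM-scaled CPM, the counts of a gene brought to a common library size, which compare libraries and not genes of different length. Cpt2PparaDKO replicate 4 stood apart. Xist, the RNA of the inactive X chromosome, had 1266 CPM in Cpt2PparaDKO replicate 4 and no more than 0.5795 CPM in the other 7 libraries, and the Y-linked gene Ddx3y had 0 counts there, a female pattern among male ones. Of the 12 libraries of the other groups that entered the fit, Cpt2KO replicate 3 also had this pattern, with 981 CPM of Xist. Some results that lean on Cpt2PparaDKO replicate 4 are given with and without it, and others, such as those of Hspa5, Trib3 and Cd68, with it alone. Without that library, 3 of the 150 named genes that were called lost their call. Albumin took 1.86% to 3.34% of counts in Cpt2PparaDKO livers and 2.11% to 3.77% in TKO livers. In bulk tissue, fewer cells of a type and less RNA per cell cannot be told apart.

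The targeted genes followed the labels for Cpt1a, Ppara and Cpt2. Cpt1a, on chromosome 19 (GRCm39, 3372334 to 3435733, plus strand), had 1011, 962, 919.9 and 468 CPM in Cpt2PparaDKO livers, against 118, 139.7, 145 and 145 CPM in TKO livers (log2 fold change 2.62, SE 0.19, adjusted p = 2.5e-09). Control livers averaged 1038 ± 76.6 CPM (SD, n = 4), close to the 3 higher Cpt2PparaDKO libraries and far above all TKO libraries. Ppara, on chromosome 15 (85619184 to 85687020, plus strand), had 75.7, 83.3, 79.4 and 54.2 CPM in Cpt2PparaDKO livers, against 209, 395, 338 and 348 CPM in TKO livers (log2 fold change -2.14, SE 0.25, adjusted p = 2.9e-06), and Control livers averaged 233 ± 46.05 CPM. Every Cpt2PparaDKO library was below every TKO library, and some Ppara counts were left. Cpt2, on chromosome 4 (107761178 to 107780807, minus strand), was targeted in both groups and had 31.4, 39.05, 36.8 and 28.5 CPM in Cpt2PparaDKO livers, against 115, 92.5, 94 and 112 CPM in TKO livers (log2 fold change -1.61, SE 0.19, adjusted p = 2.5e-06). Both groups were below the 249 ± 26.2 CPM of Control, and Cpt2PparaDKO livers were lower than TKO livers. Cpt1b, on chromosome 15 (89300608 to 89310066, minus strand), is weakly expressed in liver and had 0.541, 0.357, 0.842 and 0.582 CPM in Cpt2PparaDKO livers, against 3.03, 2.76, 3.03 and 2.38 CPM in TKO livers (log2 fold change -2.27, SE 0.36, adjusted p = 1.2e-04). It was not below Control in the groups labelled as lacking it: TKO livers averaged 2.801 ± 0.308 CPM, Cpt1DKO livers 0.881 ± 0.217 CPM and Control livers 0.543 ± 0.215 CPM, so this gene does not check the labels. The counts do not separate exons, and the sources used here do not say what part of each gene was deleted.

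**Figure D1:**
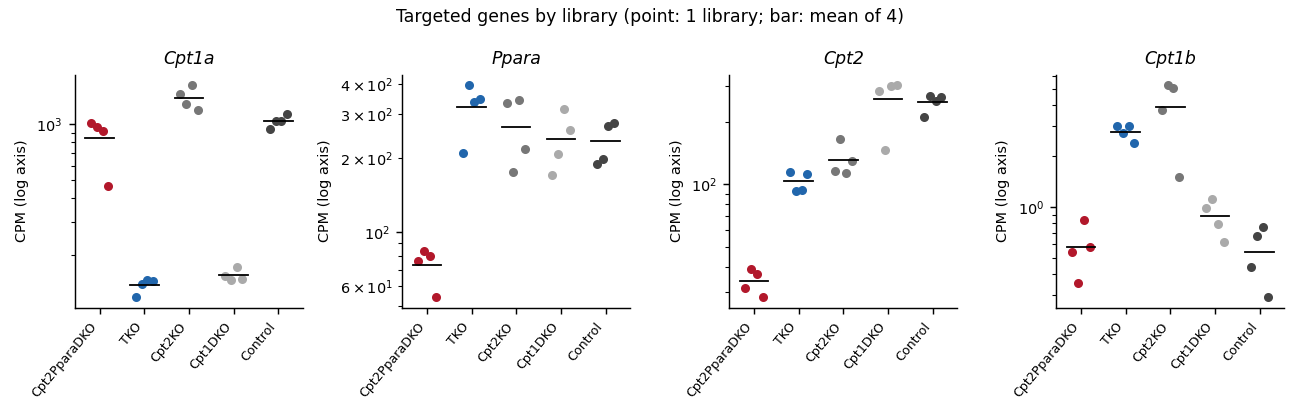
Levels of the 4 targeted genes in all 20 libraries, in CPM on a log axis, 1 point per library and a bar at the group mean, with the 5 groups from left to right. Cpt1a was high in Cpt2PparaDKO and low in TKO, Ppara was the reverse, and Cpt2 was lowest in Cpt2PparaDKO.

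Of 15669 genes tested, 3019 (19.3%) differed between Cpt2PparaDKO and TKO livers at an adjusted p under 0.05, 1455 (9.29%) higher and 1564 (9.98%) lower in Cpt2PparaDKO. At least a 2-fold change accompanied 772 of the rises and 614 of the falls. The median log2 fold change over all tested genes was 0.0069. Without Cpt2PparaDKO replicate 4, 1657 genes passed as higher and 1535 as lower, 3192 in all, which held 2525 of the 3019. In the authors' deposited table of the same comparison, 3530 of 26709 genes (13.2%) had an adjusted p under 0.05. Both analyses called 2796 genes, which is 79.2% of the authors' calls and 92.6% of the calls made here, and each of the 2796 had the same direction in both. The authors' table gives TKO over Cpt2PparaDKO, so its signs run the other way. Below, a log2 fold change is Cpt2PparaDKO over TKO, and a value after ± is its SE, or the SD over 4 libraries where a level in CPM is given.

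**Figure D2:**
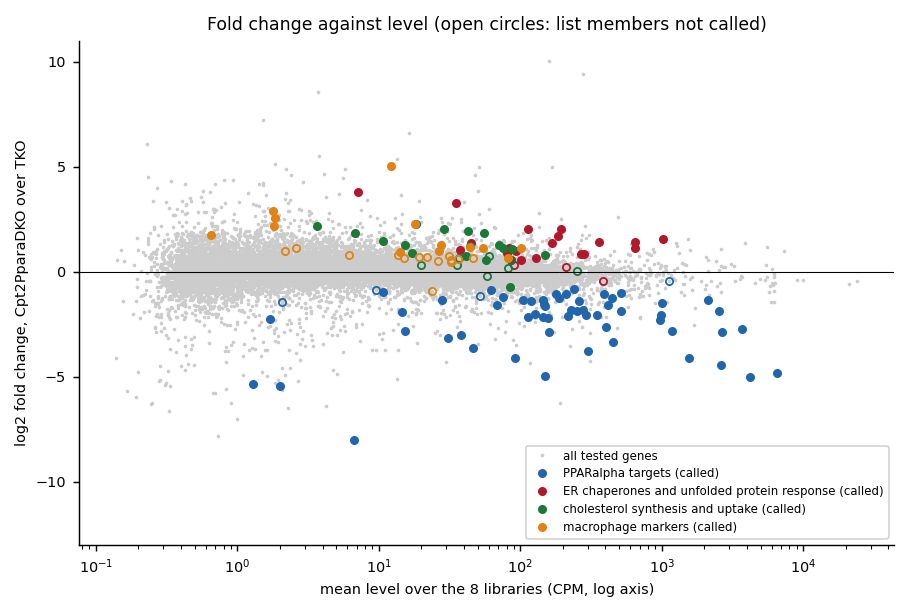
Log2 fold change, Cpt2PparaDKO over TKO, against the mean level over the 8 libraries (CPM, log axis), 1 point per tested gene. Called PPARalpha targets (57 of 61) lie below 0, and called members of the lists of endoplasmic reticulum chaperones (20 of 23) and macrophage markers (13 of 27) lie above it.

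Known targets of PPARalpha fell almost throughout. Of 61 tested members, 57 fell in Cpt2PparaDKO livers and 0 rose, beside 9.98% of all genes that fell, and the median log2 fold change was -1.92. Cpt1a, which was higher in Cpt2PparaDKO livers, was not a member of this list. The list was chosen with earlier results of these data known. The 4 members without a call were Aqp7, Apoa5, Abcd2 and G0s2, whose log2 fold changes were -1.42, -0.43, -0.89 and -1.14. In the authors' deposited table, 57 of the 61 were lower in Cpt2PparaDKO and 0 were higher. Without Cpt2PparaDKO replicate 4, 56 were called lower.

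Ehhadh, the bifunctional enzyme of peroxisomal beta-oxidation, had 188, 257, 299.8 and 263 CPM in Cpt2PparaDKO livers, against 7403, 9785, 7543 and 8134 CPM in TKO livers (log2 fold change -5.03, SE 0.25, adjusted p = 2.0e-11). Cyp4a14, a microsomal omega-hydroxylase of fatty acids, had 276, 464, 590.3 and 453 CPM in Cpt2PparaDKO livers, against 12960, 15900, 11110 and 10560 CPM in TKO livers (log2 fold change -4.82, SE 0.23, adjusted p = 7.7e-12). Cyp4a10, another enzyme of that kind, had 222, 261, 199 and 227 CPM in Cpt2PparaDKO livers, against 6444, 6014, 3902 and 3747 CPM in TKO livers (log2 fold change -4.46, SE 0.19, adjusted p = 2.6e-12). The groups lay more than 10-fold apart for these 3 genes, while Cyp4a14 ran from 276 to 590.3 CPM within the Cpt2PparaDKO group. Acot1, a cytosolic acyl-CoA thioesterase, had 71.7, 89.9, 106 and 55.5 CPM in Cpt2PparaDKO livers, against 728, 817, 908 and 819.9 CPM in TKO livers (log2 fold change -3.34, SE 0.22, adjusted p = 6.0e-10). Retsat, which saturates retinol, had 146, 218, 211 and 102 CPM in Cpt2PparaDKO livers, against 3649, 2853, 2562 and 2809 CPM in TKO livers (log2 fold change -4.13, SE 0.22, adjusted p = 3.2e-11). Vnn1, a pantetheinase, had 12.1, 13.5, 6.45 and 7.45 CPM in Cpt2PparaDKO livers, against 123, 214, 169.7 and 185 CPM in TKO livers (log2 fold change -4.12, SE 0.31, adjusted p = 1.5e-08). No library of one group overlapped the other for any of these. Reads of the Cyp4a and Acot1 to Acot3 genes come from near-identical copies, and the sources used here do not say how the authors assigned them, so the values of single members are uncertain.

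Fabp3, a fatty acid binding protein best known from heart and muscle, showed the largest fall in the comparison, counting protein-coding genes that were called, averaged 5 CPM or more and did not overlap between the groups. It had 0.0471, 0.0446, 0.0935 and 0 CPM in Cpt2PparaDKO livers, against 10.9, 1.35, 18.2 and 23.02 CPM in TKO livers (log2 fold change -8.04, SE 0.85, adjusted p = 2.7e-06). The TKO libraries were spread widely, Cpt2PparaDKO replicate 4 had 0 counts, and Control livers averaged 0.107 ± 0.0853 CPM. Pdk4, the kinase that shuts the pyruvate dehydrogenase complex in fasting, had 49.5, 38.2, 21.8 and 53.6 CPM in Cpt2PparaDKO livers, against 268, 963, 584 and 433 CPM in TKO livers (log2 fold change -3.78, SE 0.49, adjusted p = 3.2e-05), and it averaged 8.47 ± 3.32 CPM in Control livers. Fgf21, a fasting hormone secreted by hepatocytes, had 9.36, 11.3, 9.07 and 3.84 CPM in Cpt2PparaDKO livers, against 126, 26.8, 41.99 and 76.2 CPM in TKO livers (log2 fold change -3.02, SE 0.51, adjusted p = 5.3e-04) and averaged 3.45 ± 1.92 CPM in Control livers. These 3 genes were all lower in Cpt2PparaDKO than in TKO livers, while Pdk4 and Fgf21 means were still above Control.

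**Figure D3:**
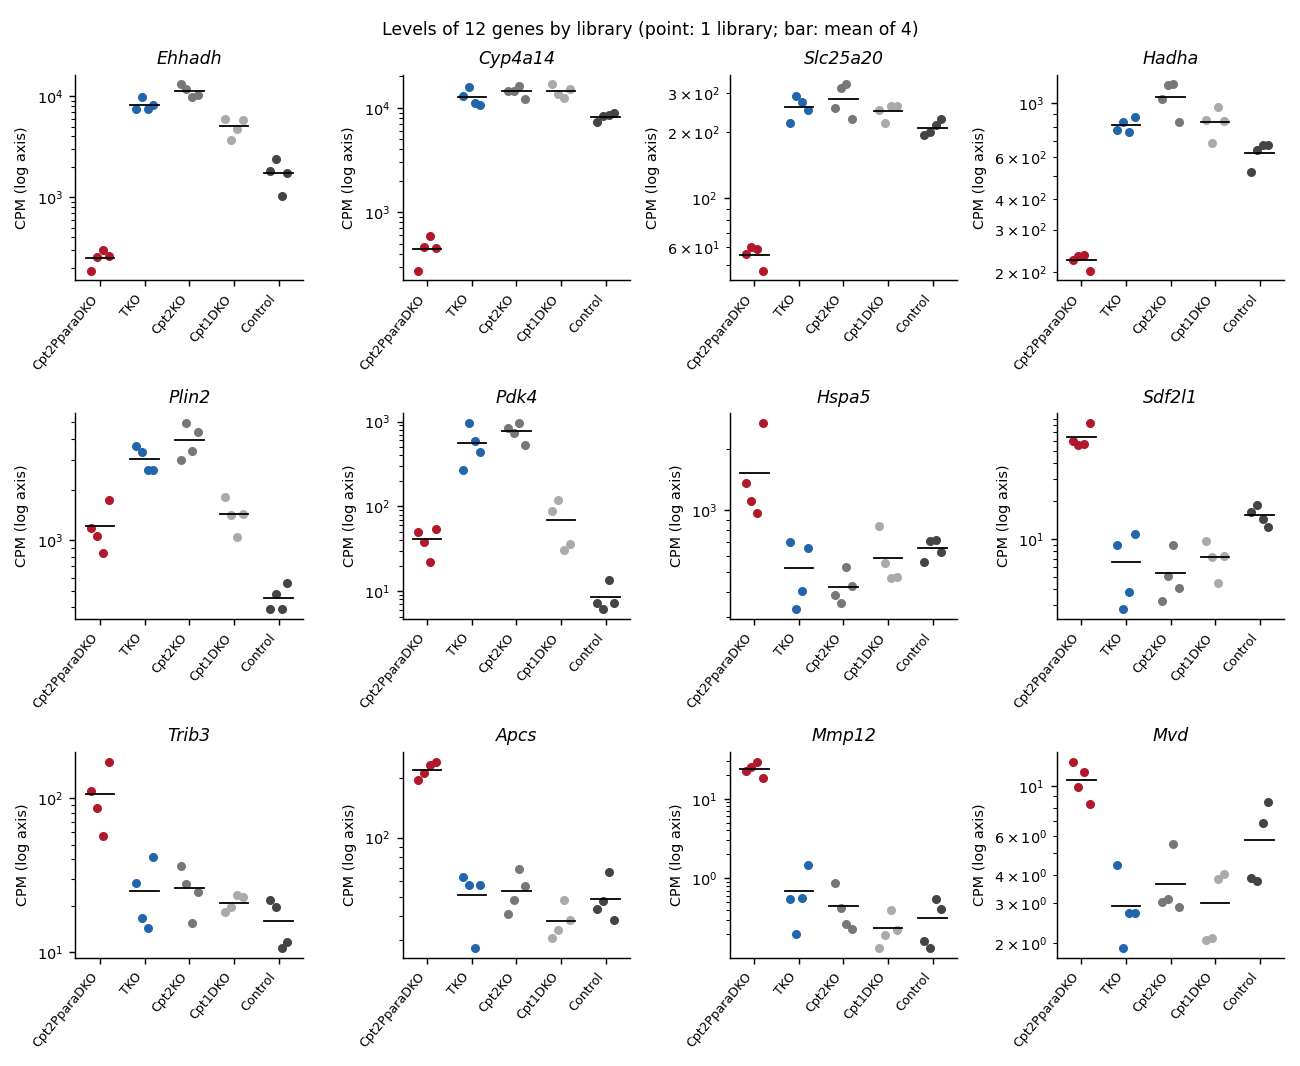
Levels of 12 genes in all 20 libraries, in CPM on a log axis, 1 point per library and a bar at the group mean, with the 5 groups from left to right. Ehhadh, Cyp4a14, Slc25a20, Hadha, Plin2 and Pdk4 were lower in Cpt2PparaDKO than in TKO, and Hspa5, Sdf2l1, Trib3, Apcs, Mmp12 and Mvd were higher.

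PPARalpha and RXR are known to bind a pair of half-sites, AGGNCA, repeated in the same orientation with 1 base between them. In the RefSeq promoter windows (GRCm38.p6, 250 bases before to 50 bases after a start, both strands searched), this pair occurred in 39 of 11011 tested genes with a window (0.354%) and in 1 of 45 PPARalpha targets with a window (2.22%). The member that held it was Fabp1, the liver fatty acid binding protein, which had 303, 422, 586 and 228 CPM in Cpt2PparaDKO livers, against 1116, 1551, 1988 and 1755 CPM in TKO livers (log2 fold change -2.06, SE 0.29, adjusted p = 3.2e-05). Its stretch is shown because it is the one match in a target gene, and the capitals mark the half-sites, here on the strand opposite to the gene and 54 bases before the start.
Fabp1, chr6:71199800-71199836, plus strand: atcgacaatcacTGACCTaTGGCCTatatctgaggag
The search says only where these letters stand in short windows.

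Genes of mitochondrial beta-oxidation fell together. Of 24 tested members, 21 fell and 0 rose, with a median log2 fold change of -1.54. Cpt1a, which was higher in Cpt2PparaDKO livers, was not among these members. The members without a call were Acad9, Acad10 and Echs1. Slc25a20, the translocase that moves acylcarnitines between CPT1 and CPT2, had 55.9, 59.9, 58.8 and 47.03 CPM in Cpt2PparaDKO livers, against 221, 291, 273 and 252 CPM in TKO livers (log2 fold change -2.23, SE 0.13, adjusted p = 2.6e-10). Slc22a5, the carnitine importer of the plasma membrane, averaged 50.9 ± 5.96 CPM in Cpt2PparaDKO livers and 204 ± 39.5 CPM in TKO livers (SD, n = 4 each; log2 fold change -2.00, SE 0.15, adjusted p = 6.1e-09). Acsl1, which activates fatty acids to acyl-CoA, had 373, 346, 325 and 115 CPM in Cpt2PparaDKO livers, against 1553, 3173, 1878 and 1633 CPM in TKO livers (log2 fold change -2.83, SE 0.33, adjusted p = 3.5e-06). Slc25a20, Slc22a5 and Acsl1 were lower in every Cpt2PparaDKO library than in any TKO library. Hadha and Hadhb, the subunits of the trifunctional protein that finishes long-chain oxidation, had log2 fold changes of -1.86 ± 0.14 and -1.80 ± 0.13 (adjusted p = 6.2e-09 and 2.0e-09). Etfdh, which passes electrons from acyl-CoA dehydrogenases to the respiratory chain, averaged 132 ± 20.2 CPM in Cpt2PparaDKO livers and 560.4 ± 25.2 CPM in TKO livers (log2 fold change -2.09, SE 0.14, adjusted p = 1.0e-09). Eci2, an enoyl-CoA isomerase, averaged 85.5 ± 9.07 CPM in Cpt2PparaDKO livers and 437 ± 21.7 CPM in TKO livers (log2 fold change -2.35, SE 0.15, adjusted p = 6.0e-10).

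Ketone body genes fell in part, with 4 of 8 members lower and 0 higher and a median log2 fold change of -0.67. Acat1, the mitochondrial acetoacetyl-CoA thiolase, had 220.4, 228, 227 and 102 CPM in Cpt2PparaDKO livers, against 498, 474, 528 and 612 CPM in TKO livers (log2 fold change -1.44, SE 0.21, adjusted p = 3.2e-05). Every Cpt2PparaDKO library was below every TKO library for Acat1. Another of the 4, Slc16a1, a monocarboxylate transporter, lost its call when any of 5 single libraries was left out (Cpt2PparaDKO replicates 1, 2 and 3 and TKO replicates 1 and 4, adjusted p from 0.054 to 0.070).

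Peroxisomal genes fell widely. Of 43 tested members, 26 fell and 0 rose, with a median log2 fold change of -0.74. Decr2, which reduces double bonds of unsaturated acyl-CoA, averaged 61.2 ± 9.78 CPM in Cpt2PparaDKO livers and 399.8 ± 70.8 CPM in TKO livers (log2 fold change -2.71, SE 0.16, adjusted p = 1.9e-10). Hsd17b4, the other bifunctional enzyme, averaged 203 ± 26.1 CPM in Cpt2PparaDKO livers and 799 ± 79.5 CPM in TKO livers (log2 fold change -1.98, SE 0.14, adjusted p = 1.8e-09). Abcd3, a transporter of branched and long acyl-CoA into peroxisomes, averaged 252 ± 55.2 CPM in Cpt2PparaDKO livers and 1162 ± 177 CPM in TKO livers (log2 fold change -2.20, SE 0.17, adjusted p = 6.4e-09). Pex11a, which drives peroxisome division, averaged 113 ± 25.2 CPM in Cpt2PparaDKO livers and 695 ± 31.8 CPM in TKO livers (log2 fold change -2.62, SE 0.17, adjusted p = 6.0e-10). Of the omega-hydroxylation list, 7 of 15 members fell and Cyp4f14 rose, with a call that was lost without any one of 5 libraries (Cpt2PparaDKO replicates 2 and 3 and TKO replicates 1, 3 and 4). Cyp4a32 had 7.83, 9.99, 14.8 and 3.997 CPM in Cpt2PparaDKO livers, against 309, 368, 280.5 and 196 CPM in TKO livers (log2 fold change -4.98, SE 0.37, adjusted p = 2.0e-08), and Aldh3a2, the fatty aldehyde dehydrogenase, had 478, 418, 235 and 204 CPM in Cpt2PparaDKO livers, against 1349, 1524, 1565 and 2055 CPM in TKO livers (log2 fold change -2.28, SE 0.25, adjusted p = 9.0e-07). Among acyl-CoA thioesterases, 7 of 14 fell and 0 rose, including Acot12 (-1.13), the peroxisomal Acot8 (-1.95) and the mitochondrial Acot2 (-1.35).

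Genes of lipid droplets and triglyceride turnover fell as well. The gene lists are not disjoint: a gene can stand in more than 1 of them, so counts of different lists are not independent. Of 33 tested members, 23 fell and 1, Tm6sf2, rose, with a median log2 fold change of -0.99. Plin5, the droplet coat protein that tethers droplets to mitochondria, had 31.7, 37.2, 45.3 and 37.99 CPM in Cpt2PparaDKO livers, against 274, 352, 261 and 231 CPM in TKO livers (log2 fold change -2.88, SE 0.24, adjusted p = 4.0e-08). Hsd17b11, a droplet-bound dehydrogenase, averaged 72.3 ± 1.39 CPM in Cpt2PparaDKO livers and 551 ± 49.9 CPM in TKO livers (log2 fold change -2.93, SE 0.20, adjusted p = 1.4e-09). Fitm2, which helps droplets form at the endoplasmic reticulum, averaged 40.7 ± 6.74 CPM in Cpt2PparaDKO livers and 185 ± 46.3 CPM in TKO livers (log2 fold change -2.18, SE 0.17, adjusted p = 6.3e-09). Both storage and release sides were among the falls. Gpam, the first acyltransferase of triglyceride synthesis, had a log2 fold change of -1.50 ± 0.13, and Mttp, which loads triglyceride onto lipoproteins, one of -1.45 ± 0.13 (adjusted p = 3.0e-08 and 4.4e-08). Mogat1, a monoacylglycerol acyltransferase, fell to 0.158 CPM in Cpt2PparaDKO livers, against 3.99 CPM in TKO livers (log2 fold change -4.59, SE 0.38, adjusted p = 2.4e-08). Of 19 members for fatty acid uptake and binding, 11 fell and 3 rose. Slc27a1, Slc27a2 and Slc27a4, fatty acid transport proteins with acyl-CoA synthetase activity, had log2 fold changes of -3.21, -1.73 and -1.42 (adjusted p = 8.1e-06, 6.4e-06 and 1.4e-06). The members that rose were Lpl, Fabp5 and Acsl4, and without TKO replicate 1 a single one of them was called. Fabp5 lost its call without any one of 6 libraries and Acsl4 without any one of 5, with adjusted p up to 0.12 and 0.16.

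Set beside Control, the fallen lipid genes split into those below and those above the control level. The comparisons with Control share the same 4 Control libraries and are given as levels, with no test. The median log2 difference from Control over the 61 PPARalpha targets was -1.27 in Cpt2PparaDKO livers and 0.61 in TKO livers. For 50 of the 61, the fitted level in Cpt2PparaDKO livers was below Control. Over the 33 tested droplet and triglyceride genes, the median log2 difference from Control was -0.63 in Cpt2PparaDKO livers and 0.62 in TKO livers, and 23 of the 33 were below Control in Cpt2PparaDKO livers. Plin2 and Cidec were above Control in both groups. Plin2, the main droplet coat protein of hepatocytes, averaged 1208 CPM in Cpt2PparaDKO, 3042 CPM in TKO and 454 CPM in Control livers. Cidec, which fuses droplets, averaged 113 CPM in Cpt2PparaDKO, 468 CPM in TKO and 24.3 CPM in Control livers. Both fell against TKO (adjusted p = 2.1e-04 and 3.7e-07), and they were named here after their values were seen.

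**Figure D4:**
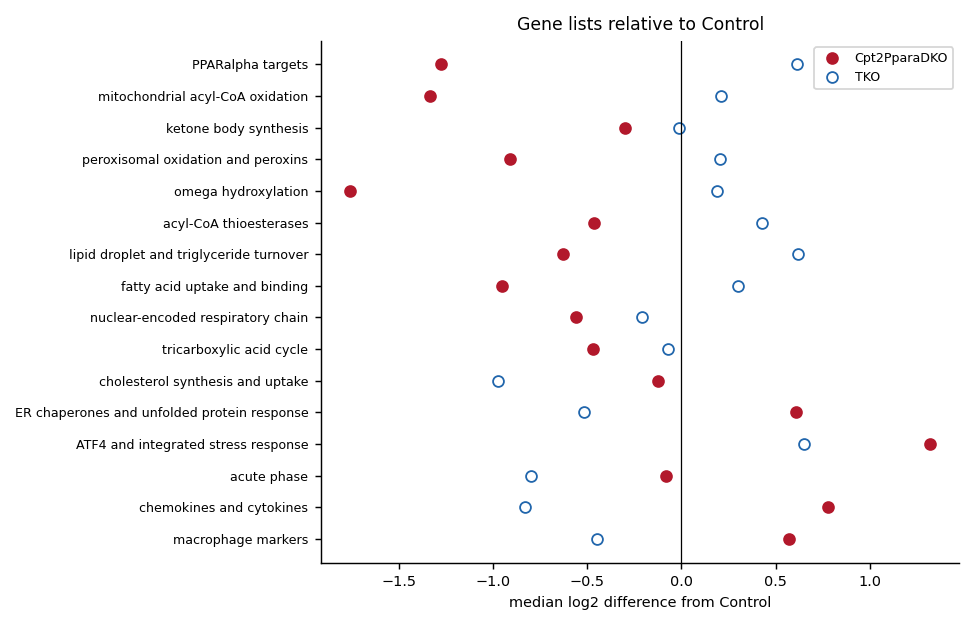
Median log2 difference from Control over the tested members of 16 gene lists, in Cpt2PparaDKO livers (filled circles) and in TKO livers (open circles). Both comparisons share the Control libraries. The lists of PPARalpha targets, beta-oxidation, uptake and lipid droplets lie to the left of Control in Cpt2PparaDKO and to its right in TKO.

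Sterol synthesis moved the other way. Of 25 tested members of cholesterol synthesis and uptake, 16 rose and 1, Hsd17b7, fell, beside 9.29% of all genes that rose. Their median log2 fold change was 0.88. Mvd, which makes isopentenyl pyrophosphate, had 12.8, 9.896, 11.6 and 8.34 CPM in Cpt2PparaDKO livers, against 4.42, 1.89, 2.71 and 2.7 CPM in TKO livers (log2 fold change 1.86, SE 0.31, adjusted p = 2.1e-04). Mvk, an earlier enzyme of the same arm, had 19.7, 17.2, 16.6 and 9.197 CPM in Cpt2PparaDKO livers, against 6.42, 4.18, 5.41 and 6.63 CPM in TKO livers (log2 fold change 1.47, SE 0.26, adjusted p = 3.1e-04). Fdps, which makes farnesyl pyrophosphate, had 6.63, 7.18, 5.61 and 4.42 CPM in Cpt2PparaDKO livers, against 1.82, 0.809, 0.886 and 1.74 CPM in TKO livers (log2 fold change 2.17, SE 0.40, adjusted p = 5.9e-04). Every Cpt2PparaDKO library was above every TKO library for these 3 enzymes. Nsdhl, Pmvk and Sc5d had log2 fold changes of 1.25, 0.88 and 0.78 (adjusted p = 0.0014, 0.0015 and 0.0042). The median log2 difference from Control over this list was -0.12 in Cpt2PparaDKO livers and -0.97 in TKO livers. The sterol response element TCACNCCAC, searched in the promoter windows on both strands after these levels had been seen, occurred in 1 of 17 members with a window (5.88%) and in 162 of 11011 tested genes (1.47%). Lipogenesis was mixed, with 4 of 19 members higher and 4 lower, a share of 42.1% beside 19.3% of all genes. Acly, which makes cytosolic acetyl-CoA from citrate, and Elovl6, a fatty acid elongase, rose (0.84 ± 0.13 and 1.13 ± 0.19), and Elovl5 and Fads2, which build polyunsaturated fatty acids, fell (-1.27 ± 0.24 and -1.14 ± 0.22). Without TKO replicate 2, 2 members were called higher.

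Chaperones and folding enzymes of the endoplasmic reticulum were higher in Cpt2PparaDKO livers. Of 23 tested members, 20 rose and 0 fell, with a median log2 fold change of 1.12. The members without a call were Dnajb9, Herpud1 and Xbp1. Sdf2l1, a chaperone cofactor, had 59.7, 55.8, 56.99 and 83.5 CPM in Cpt2PparaDKO livers, against 8.97, 2.76, 3.83 and 10.9 CPM in TKO livers (log2 fold change 3.26, SE 0.38, adjusted p = 6.3e-06). Pdia6, a protein disulfide isomerase, had 322, 282, 258 and 387 CPM in Cpt2PparaDKO livers, against 90.05, 59.5, 57.8 and 99.1 CPM in TKO livers (log2 fold change 2.03, SE 0.21, adjusted p = 5.3e-07). Derl3, a channel component for the removal of misfolded proteins, had 14.3, 13.5, 9.96 and 15.9 CPM in Cpt2PparaDKO livers, against 1.15, 0.0674, 0.5598 and 1.97 CPM in TKO livers (log2 fold change 3.79, SE 0.84, adjusted p = 0.0042). The Cpt2PparaDKO libraries lay above all TKO libraries for each of these, with Cpt2PparaDKO replicate 4 the highest, and the TKO values of Derl3 were near 0. Without TKO replicate 4 the log2 fold change of Derl3 was 4.46. Pdia3, Dnajb11, Dnajc3 and Selenos had log2 fold changes of 1.39, 1.13, 0.85 and 0.88 (adjusted p = 6.0e-06, 6.6e-06, 2.4e-05 and 2.3e-06). The median log2 difference of the list from Control was 0.61 in Cpt2PparaDKO livers and -0.52 in TKO livers. Without Cpt2PparaDKO replicate 4, 19 members were called higher.

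The promoters of many of these genes carried the element known to respond to endoplasmic reticulum stress, CCAAT followed by 9 bases and CCACG, searched in the same windows on both strands. Of 20 members with a window, 10 held it (50%), beside 22 of 11011 tested genes with a window (0.200%). All 10 rose, but so did most of the list: 17 of the 20 members with a window were called higher, with or without the element. Of the 12 other tested genes with the element, 4 rose, 2 fell and 6 had no call. The left part alone is the CCAAT box bound by NF-Y, which many promoters hold, and the motif was chosen after the levels of this list had been seen. The stretches are shown so that the shared spacing can be read, with both parts in capitals, the gene's own strand throughout, and the parts appearing as CGTGG and ATTGG where the element lies on the opposite strand.
Hspa5, chr2:34772013-34772055, plus strand: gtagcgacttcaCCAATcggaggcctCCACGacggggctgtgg
Pdia6, chr12:17266479-17266521, plus strand: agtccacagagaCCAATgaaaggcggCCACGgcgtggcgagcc
Dnajc3, chr14:118937815-118937857, plus strand: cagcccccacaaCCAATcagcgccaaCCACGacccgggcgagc
Canx, chr11:50325788-50325830, minus strand: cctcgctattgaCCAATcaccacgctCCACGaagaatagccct
Hsp90b1, chr10:86705626-86705668, minus strand: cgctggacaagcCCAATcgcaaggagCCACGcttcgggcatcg
Hsp90b1, chr10:86705521-86705563, minus strand: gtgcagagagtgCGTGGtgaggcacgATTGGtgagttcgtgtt
Calr, chr8:84847063-84847105, minus strand: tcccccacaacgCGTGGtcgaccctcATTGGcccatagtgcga
Derl3, chr10:75893230-75893272, plus strand: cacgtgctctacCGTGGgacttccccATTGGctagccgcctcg
Creld2, chr15:88819508-88819550, plus strand: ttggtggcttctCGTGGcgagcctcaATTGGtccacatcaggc
Ero1b, chr13:12565670-12565712, plus strand: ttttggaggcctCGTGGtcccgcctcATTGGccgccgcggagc
Syvn1, chr19:6046520-6046562, plus strand: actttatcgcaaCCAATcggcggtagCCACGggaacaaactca
Hspa5, the central chaperone of the compartment also called BiP, had 1362, 1107, 967 and 2673 CPM in Cpt2PparaDKO livers, against 696, 327, 402 and 653 CPM in TKO livers (log2 fold change 1.56, SE 0.29, adjusted p = 8.4e-04). Calr and Canx, lectin chaperones, had log2 fold changes of 1.43 ± 0.21 and 0.82 ± 0.14, and Hsp90b1, another abundant chaperone, one of 1.12 ± 0.19 (adjusted p = 4.1e-05, 1.9e-04 and 2.6e-04). Creld2, Ero1b and Syvn1, which serve folding, disulfide formation and the removal of proteins, had log2 fold changes of 1.34, 1.01 and 0.58 (adjusted p = 0.0095, 2.1e-04 and 0.012). Hspa5, Calr, Canx, Hsp90b1, Creld2, Ero1b and Syvn1 were named for their promoters after their values were seen.

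Targets of ATF4, the factor of the integrated stress response, were divided. Of 28 tested members, 6 rose and 3 fell, a share of 32.1% beside 19.3% of all genes. The median log2 fold change was 0.63 with all libraries and 0.22 without Cpt2PparaDKO replicate 4, where 6 again rose and 3 fell. Trib3, a pseudokinase induced by stress, had 112, 85.99, 57.2 and 174 CPM in Cpt2PparaDKO livers, against 28.2, 16.7, 14.2 and 41.3 CPM in TKO livers (log2 fold change 2.09, SE 0.38, adjusted p = 7.9e-04). Ddit3, the stress factor CHOP, had 25.3, 23.3, 22.1 and 36.3 CPM in Cpt2PparaDKO livers, against 10.5, 7.95, 6.76 and 14.7 CPM in TKO livers (log2 fold change 1.42, SE 0.27, adjusted p = 8.9e-04). Nupr1, a small stress-induced nuclear protein, had 80.6, 64.99, 41.99 and 237 CPM in Cpt2PparaDKO livers, against 16.2, 21.3, 9.61 and 7.46 CPM in TKO livers (log2 fold change 2.97, SE 0.61, adjusted p = 0.0025). Cpt2PparaDKO replicate 4 was the highest library for all 3 genes, and without it the log2 fold change of Nupr1 was 2.23 (adjusted p = 0.0065). Atf5 rose (0.84 ± 0.19, adjusted p = 0.0033), while Fgf21 and Shmt2, a mitochondrial enzyme of one-carbon metabolism, fell (Shmt2 -0.63 ± 0.15, adjusted p = 0.0037).

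Mitochondrial genes outside beta-oxidation fell by smaller amounts. Of 28 members of the tricarboxylic acid cycle and pyruvate entry, 12 fell and 0 rose. Dlst, a subunit of the 2-oxoglutarate dehydrogenase complex, averaged 176 ± 12.8 CPM in Cpt2PparaDKO livers and 382 ± 45.4 CPM in TKO livers (log2 fold change -1.12, SE 0.11, adjusted p = 4.6e-07). Of 55 nuclear-encoded subunits of the respiratory chain, 31 fell and 0 rose, with a median log2 fold change of -0.36. This count leaned on single libraries: it was 10 without Cpt2PparaDKO replicate 4, 11 without TKO replicate 2, 17 without TKO replicate 3 and 20 without Cpt2PparaDKO replicate 1. Cycs, cytochrome c, averaged 90.6 ± 13.1 CPM in Cpt2PparaDKO livers and 167 ± 17.8 CPM in TKO livers (log2 fold change -0.88, SE 0.15, adjusted p = 2.5e-04), and Atp5a1, the alpha subunit of ATP synthase, averaged 727 ± 50.1 CPM in Cpt2PparaDKO livers and 1123 ± 112 CPM in TKO livers (log2 fold change -0.63, SE 0.12, adjusted p = 9.3e-04). Of 13 protein-coding transcripts of the mitochondrial genome, 7 fell, and 3 did without Cpt2PparaDKO replicate 3, Cpt2PparaDKO replicate 4 or TKO replicate 3. All mitochondrial transcripts together took 4.38% to 6.17% of counts in Cpt2PparaDKO livers and 5.63% to 8.02% in TKO livers.

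Receptors that set liver metabolism were lower in part. Of 36 nuclear receptors and coactivators, 8 fell, Ppara itself included, and 2 rose, a share of 27.8% beside 19.3% of all genes. The rises were 1 without Cpt2PparaDKO replicate 2 or 3 or TKO replicate 1 or 2. Nr1i2 and Nr1i3, the xenobiotic receptors PXR and CAR, had log2 fold changes of -1.04 ± 0.21 and -1.31 ± 0.30 (adjusted p = 0.0015 and 0.0045). Esrrg, an orphan receptor, fell to 0.197 CPM in Cpt2PparaDKO livers, against 2.47 CPM in TKO livers (log2 fold change -3.70, SE 0.73, adjusted p = 0.0015). Pparg, the adipogenic relative of Ppara, rose and had 35.5, 36.3, 28.8 and 44.9 CPM in Cpt2PparaDKO livers, against 21.4, 24.7, 17.2 and 19.5 CPM in TKO livers (log2 fold change 0.82, SE 0.17, adjusted p = 0.0019). It averaged 8.57 ± 0.628 CPM in Control livers, below both groups.

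Glucose genes changed in both directions. Of 21 members for gluconeogenesis and fasting regulation, 3 rose and 4 fell, a share of 33.3% beside 19.3% of all genes. Ppp1r3c, which targets a phosphatase to glycogen, had 21.1, 26.1, 34.5 and 7.41 CPM in Cpt2PparaDKO livers, against 3.82, 3.23, 3.499 and 4.58 CPM in TKO livers (log2 fold change 2.55, SE 0.64, adjusted p = 0.0099). It averaged 65.6 ± 37.75 CPM in Control livers, above the means of both groups. Every Cpt2PparaDKO library was above every TKO library. Creb3l3, a liver factor of the fasting lipid response, had 292, 294, 274 and 182 CPM in Cpt2PparaDKO livers, against 629.6, 666, 626 and 591 CPM in TKO livers (log2 fold change -1.27, SE 0.15, adjusted p = 4.3e-06). Igfbp2, a binding protein of insulin-like growth factors, averaged 276 ± 32.5 CPM in Cpt2PparaDKO livers and 874 ± 151 CPM in TKO livers (log2 fold change -1.66, SE 0.17, adjusted p = 5.1e-07). Of 38 members for amino acid breakdown, 4 rose and 5 fell, a share of 23.7% beside 19.3% of all genes, while 9 rose without Cpt2PparaDKO replicate 4 and 3 fell without TKO replicate 2. Cbs, the first enzyme of the transsulfuration path, had 418, 453, 613 and 271 CPM in Cpt2PparaDKO livers, against 141, 174, 138 and 130.3 CPM in TKO livers (log2 fold change 1.59, SE 0.20, adjusted p = 6.8e-06).

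Acute-phase proteins of hepatocytes were higher. Of 25 tested members, 14 rose and 0 fell, with a median log2 fold change of 0.90. Without TKO replicate 1 or TKO replicate 3, 9 were called higher, and without Cpt2PparaDKO replicate 4, 1 was called lower. Apcs, serum amyloid P, had 196, 213, 235 and 243 CPM in Cpt2PparaDKO livers, against 62.7, 57.3, 27.3 and 57.7 CPM in TKO livers (log2 fold change 2.11, SE 0.23, adjusted p = 1.5e-06). Hpx and Hp, the carriers of free heme and haemoglobin, had log2 fold changes of 1.39 ± 0.17 and 1.09 ± 0.18 (adjusted p = 3.8e-06 and 2.3e-04). Fgb, the fibrinogen beta chain, averaged 2117 ± 172 CPM in Cpt2PparaDKO livers and 1032 ± 337 CPM in TKO livers (log2 fold change 1.04, SE 0.21, adjusted p = 0.0012). Lcn2, a siderophore-binding protein of hepatocytes and neutrophils, had 30.6, 29.1, 26.2 and 202 CPM in Cpt2PparaDKO livers, against 2.85, 17.4, 2.71 and 6.498 CPM in TKO livers (log2 fold change 3.31, SE 0.76, adjusted p = 0.0059). Cpt2PparaDKO replicate 4 was far above the rest for Lcn2, and without it the log2 fold change was 2.00 (adjusted p = 0.019), while it was 4.15 without TKO replicate 2. Saa3, a serum amyloid of macrophages and fat as well as liver, had 6.02, 14.3, 29.7 and 3.299 CPM in Cpt2PparaDKO livers, against 1.39, 1.48, 1.96 and 2.105 CPM in TKO livers (log2 fold change 2.92, SE 0.55, adjusted p = 0.0011), and without Cpt2PparaDKO replicate 3, the highest library, its log2 fold change was 2.16. The list's median log2 difference from Control was -0.08 in Cpt2PparaDKO livers and -0.80 in TKO livers. Other plasma proteins were mixed, with 6 of 39 higher and 5 lower, a share of 28.2% beside 19.3% of all genes. Trf, transferrin, averaged 9827 ± 2270 CPM in Cpt2PparaDKO livers and 4903 ± 949.6 CPM in TKO livers (log2 fold change 1.00, SE 0.18, adjusted p = 3.8e-04), and Ahsg, fetuin-A, averaged 7723 ± 405 CPM in Cpt2PparaDKO livers and 3427 ± 367 CPM in TKO livers (log2 fold change 1.17, SE 0.16, adjusted p = 1.2e-05). Apoa4 and Apoa1, apolipoproteins of high-density particles, fell (-1.43 ± 0.33 and -0.62 ± 0.17).

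Glutathione transferases and drug-metabolizing cytochromes changed gene by gene. Of 31 NRF2 targets and glutathione enzymes, 7 rose and 0 fell, a share of 22.6% beside 9.29% of all genes that rose, with a median log2 fold change of 0.08. Without Cpt2PparaDKO replicate 4, 3 of them fell. Gstm3 had 264, 214, 137 and 682 CPM in Cpt2PparaDKO livers, against 21.6, 4.18, 6.02 and 8.603 CPM in TKO livers (log2 fold change 5.01, SE 0.55, adjusted p = 5.9e-06), and its log2 fold change was 4.37 without Cpt2PparaDKO replicate 4 and 5.68 without TKO replicate 1. Gstm1, Gsta4 and Nqo1, a quinone reductase, had log2 fold changes of 1.35 ± 0.19, 1.81 ± 0.17 and 0.92 ± 0.23 (adjusted p = 3.5e-05, 1.2e-07 and 0.0076). Of 34 cytochromes P450 of families 1 to 3, 7 rose and 2 fell, a share of 26.5% beside 19.3% of all genes, and 1 fell without Cpt2PparaDKO replicate 4 or TKO replicate 2. Cyp1a2, which metabolizes caffeine, averaged 469 ± 194 CPM in Cpt2PparaDKO livers and 138 ± 14.4 CPM in TKO livers (log2 fold change 1.77, SE 0.27, adjusted p = 8.3e-05), and Cyp2e1, the ethanol-inducible enzyme, averaged 3363 ± 1441 CPM in Cpt2PparaDKO livers and 9103 ± 1404 CPM in TKO livers (log2 fold change -1.44, SE 0.27, adjusted p = 6.3e-04). Of 28 bile acid genes, 6 rose and 5 fell, a share of 39.3% beside 19.3% of all genes, with a median log2 fold change of 0.0073. These counts were 3 and 1 without TKO replicate 2, and 3 fell without Cpt2PparaDKO replicate 3. Abcb11, the bile salt export pump, rose and had 214, 155, 127 and 94.5 CPM in Cpt2PparaDKO livers, against 37.4, 51.1, 46.04 and 41 CPM in TKO livers (log2 fold change 1.75, SE 0.36, adjusted p = 0.0022). It averaged 360.5 ± 67.3 CPM in Control livers, above both groups. Slco1a4, a bile salt and drug importer, had 244, 220.3, 209 and 269 CPM in Cpt2PparaDKO livers, against 23.4, 64.9, 28.4 and 21.7 CPM in TKO livers (log2 fold change 2.77, SE 0.55, adjusted p = 0.0019). Reads of the Gstm, Gsta and Cyp2c families come from close paralogs, so single members are uncertain.

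Part of the chemokine and interferon genes were higher in Cpt2PparaDKO than in TKO livers. Of 20 chemokines and cytokines, 10 rose and 0 fell, with a median log2 fold change of 1.04. Their median log2 difference from Control was 0.78 in Cpt2PparaDKO livers and -0.83 in TKO livers. Csf1, the growth factor of macrophages, had 13.9, 16.5, 12.3 and 15.6 CPM in Cpt2PparaDKO livers, against 4.303, 4.11, 5.505 and 5.903 CPM in TKO livers (log2 fold change 1.55, SE 0.20, adjusted p = 6.9e-06). Il1b, an inflammatory cytokine, had 4.12, 5.88, 10.4 and 2.21 CPM in Cpt2PparaDKO livers, against 0.424, 0.674, 0.933 and 0.961 CPM in TKO livers (log2 fold change 2.87, SE 0.55, adjusted p = 9.0e-04). Cxcl1, which attracts neutrophils, had 3.41, 4.15, 4.44 and 1.48 CPM in Cpt2PparaDKO livers, against 0.424, 0.404, 0.513 and 1.05 CPM in TKO livers (log2 fold change 2.44, SE 0.46, adjusted p = 7.1e-04). Il1b and Cxcl1 were low, at no more than 1.05 CPM in TKO livers, and no library overlapped the other group. Of 39 interferon-stimulated and antigen presentation genes, 19 rose and 1, H2-K1, fell, with a call that was lost without any one of 5 libraries. The median log2 difference of this list from Control was -0.35 in Cpt2PparaDKO livers and -1.07 in TKO livers, and 27 of the 39 were below Control in Cpt2PparaDKO livers. Isg15, a ubiquitin-like protein induced by interferon, had 5.27, 5.84, 7.11 and 5.28 CPM in Cpt2PparaDKO livers, against 2.24, 1.48, 1.21 and 1.65 CPM in TKO livers (log2 fold change 1.83, SE 0.26, adjusted p = 3.3e-05), and Irf7, a transcription factor of that response, had 36.2, 37.7, 34.6 and 23.2 CPM in Cpt2PparaDKO livers, against 7.999, 10.7, 12.4 and 12.3 CPM in TKO livers (log2 fold change 1.60, SE 0.27, adjusted p = 3.7e-04). Psmb8, Bst2 and Usp18 had log2 fold changes of 0.90, 0.69 and 1.03 (adjusted p = 7.9e-04, 0.0016 and 0.0047).

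Markers of macrophages were higher in part. Of 27 tested members, 13 rose and 0 fell, and 8 rose without Cpt2PparaDKO replicate 1, Cpt2PparaDKO replicate 3 or TKO replicate 1, the last with 1 fall. Mmp12, an elastase of macrophages, had 22.1, 25.01, 29.3 and 18.5 CPM in Cpt2PparaDKO livers, against 0.545, 0.202, 0.5598 and 1.46 CPM in TKO livers (log2 fold change 5.02, SE 0.40, adjusted p = 1.4e-08), and without TKO replicate 4, the highest of its group, the log2 fold change was 5.70. Cd68, a lysosomal protein of macrophages, had 62.9, 61.7, 63.5 and 112 CPM in Cpt2PparaDKO livers, against 35.7, 37.95, 32.8 and 30.8 CPM in TKO livers (log2 fold change 1.13, SE 0.25, adjusted p = 0.0030) and averaged 8.47 ± 2.69 CPM in Control livers. Itgax, Trem2 and Ccr2, markers of recruited macrophages, had log2 fold changes of 2.90, 2.58 and 2.19 at no more than 5.19 CPM in any library (adjusted p = 2.8e-04, 8.4e-04 and 8.0e-04). The summed level of the 28 macrophage markers in the table was 846.0 to 981 CPM in Cpt2PparaDKO livers, 332 to 599 CPM in TKO livers and 425 to 819 CPM in Control livers, and 0 of them were at 0 in all 8 libraries. The immune lists above moved with these markers, and their part in those results was not tested.

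**Figure D5:**
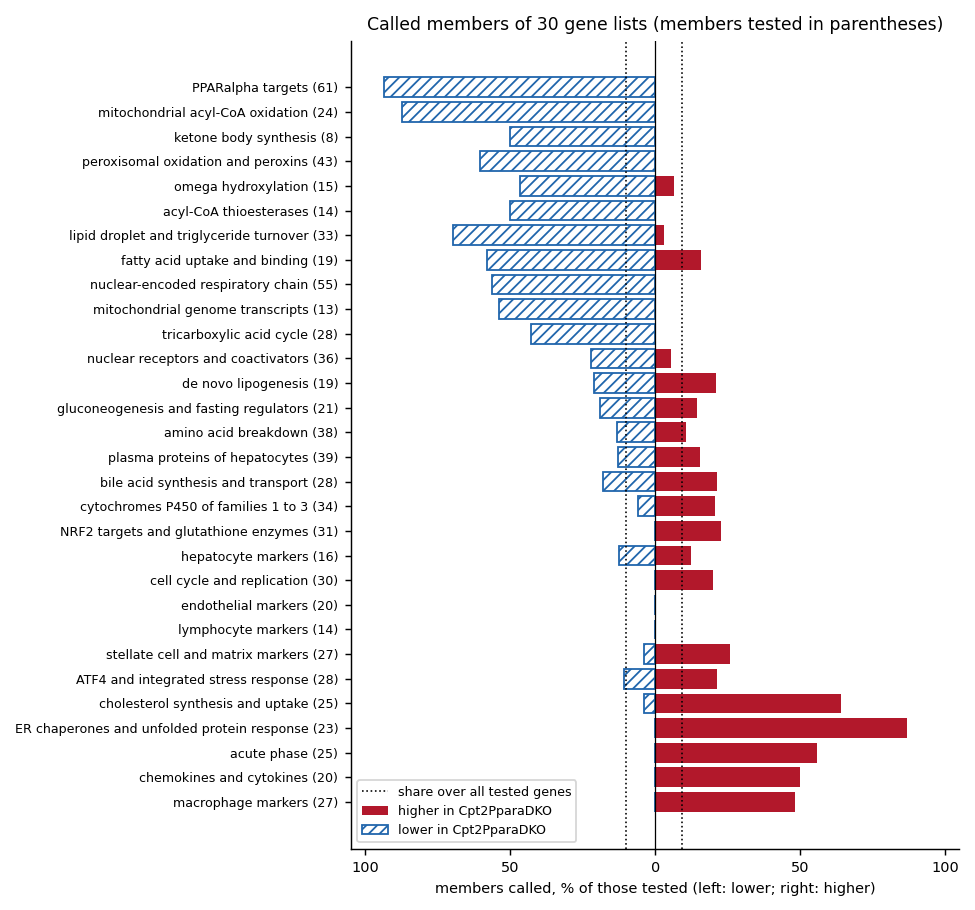
Share of tested members called higher (right, filled) and lower (left, hatched) in Cpt2PparaDKO against TKO for 30 gene lists, in percent, with dotted lines at the shares over all genes (9.29% higher and 9.98% lower). Oxidation and droplet lists extend to the left, and chaperone, sterol, acute-phase and immune lists to the right.

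Of 20 endothelial markers 0 were called at a median log2 fold change of 0.22, and their summed level was 775 to 923 CPM in Cpt2PparaDKO livers and 597 to 941 CPM in TKO livers. At an unadjusted p under 0.05, 2 endothelial markers were higher, DESeq2 and limma voom called 0, and without TKO replicate 3 edgeR called 1. By edgeR, 0 of 14 lymphocyte markers were called, with 2 higher and 1 lower at an unadjusted p under 0.05 and 1 called by DESeq2, by limma voom and without TKO replicate 3. Of 7 erythroid transcripts, edgeR, DESeq2 and limma voom called 0, and 0 passed an unadjusted p of 0.05. Of 27 stellate cell and matrix markers, 7 rose and 1, the basement membrane collagen gene Col4a1, fell (-0.60 ± 0.19, adjusted p = 0.032). These calls were a share of 29.6% beside 19.3% of all genes. The call of Col4a1 was lost without any one of 6 libraries. Col1a1 and Col3a1, fibrillar collagens, had log2 fold changes of 1.61 ± 0.28 and 1.38 ± 0.26 (adjusted p = 2.8e-04 and 6.9e-04), and the summed level of the list was 632 to 753 CPM in Cpt2PparaDKO livers and 533 to 627 CPM in TKO livers. Of 5 tested neutrophil markers, Csf3r, Lcn2 and Mmp9 rose, Mmp9 without a call when TKO replicate 1 was left out (adjusted p = 0.050), S100a8 and S100a9 did not pass the test, and Ly6g was at 0 in all 8 libraries. Of 10 tested cholangiocyte markers, 0 rose and 1 fell, a share of 10% beside 19.3% of all genes, while the median log2 fold change was 0.78. The single one called was Krt23, which fell to 1.38 CPM in Cpt2PparaDKO livers, against 17.8 CPM in TKO livers (log2 fold change -3.72, SE 0.64, adjusted p = 6.1e-04). Krt23 averaged 3.91 CPM in Control livers. Krt19, the defining keratin of bile ducts, had 0.635, 0.401, 0.655 and 20.5 CPM in Cpt2PparaDKO livers, against 0.667, 0, 1.21 and 1.42 CPM in TKO livers, with 1 library far above the other 7. Of 16 hepatocyte markers, 2 rose and 2 fell, a share of 25% beside 19.3% of all genes. From this list, 4 rose without Cpt2PparaDKO replicate 4 and 1 fell without TKO replicate 2. The summed level of the hepatocyte markers was 60260 to 69250 CPM in Cpt2PparaDKO livers and 51520 to 89780 CPM in TKO livers, with 110100 to 134700 CPM in Control livers. Hepatocyte transcripts were thus abundant in both groups, as the liver label requires.

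Cell cycle and growth arrest genes changed in a few members. Of 30 cell cycle genes, 6 rose and 0 fell, a share of 20%. Of all genes, 9.29% rose, and 19.3% were called in either direction. Ccnd1, cyclin D1, had 32.4, 25.8, 23.99 and 90.4 CPM in Cpt2PparaDKO livers, against 8.42, 5.998, 14.5 and 14.7 CPM in TKO livers (log2 fold change 1.98, SE 0.46, adjusted p = 0.0054), and without Cpt2PparaDKO replicate 4 the log2 fold change was 1.34 (adjusted p = 0.015). Mcm6, a subunit of the replication helicase, had 6.26, 6.82, 7.67 and 11.2 CPM in Cpt2PparaDKO livers, against 3.39, 4.18, 3.54 and 3.66 CPM in TKO livers (log2 fold change 1.11, SE 0.24, adjusted p = 0.0020). Of 28 p53 and growth arrest genes, 5 rose and 2 fell, a share of 25%. For that list, 3 rose without Cpt2PparaDKO replicate 1 or 2 or TKO replicate 3 or 4, 2 rose without TKO replicate 2, and 4 fell without Cpt2PparaDKO replicate 4. Gadd45a, a growth arrest protein, had 11.6, 9.23, 5.66 and 4.89 CPM in Cpt2PparaDKO livers, against 1.15, 0.876, 0.513 and 3.29 CPM in TKO livers (log2 fold change 2.40, SE 0.47, adjusted p = 0.0010), and without TKO replicate 4 its log2 fold change was 3.22. Of 26 immediate early and MAP kinase phosphatase genes, 4 rose and 0 fell, a share of 15.4% beside 9.29% of all genes that rose. Without TKO replicate 2 or 3, 2 of them rose. Nr4a1, an immediate early nuclear receptor, had 46.9, 36.6, 34.2 and 21.5 CPM in Cpt2PparaDKO livers, against 2.79, 4.18, 4.57 and 2.15 CPM in TKO livers (log2 fold change 3.35, SE 0.53, adjusted p = 2.8e-04), while Jun, of the same class, did not pass the test (-0.75 ± 0.27, adjusted p = 0.062).

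Several of the largest changes fell outside the lists. Slc13a5, the plasma membrane citrate importer, had 12.3, 11.7, 10.1 and 4.73 CPM in Cpt2PparaDKO livers, against 0.424, 1.08, 1.03 and 0.503 CPM in TKO livers (log2 fold change 3.68, SE 0.42, adjusted p = 1.7e-06). Slpi, a secreted protease inhibitor, had 10.1, 13.5, 19.8 and 17 CPM in Cpt2PparaDKO livers, against 1.33, 0.809, 0.8397 and 2.65 CPM in TKO livers (log2 fold change 3.39, SE 0.56, adjusted p = 3.0e-04). Adgrf1, an adhesion receptor, had 10.7, 12.5, 15.99 and 3.84 CPM in Cpt2PparaDKO livers, against 0.364, 1.08, 0.467 and 0.0915 CPM in TKO livers (log2 fold change 4.48, SE 0.54, adjusted p = 5.2e-06), and its log2 fold change was 5.11 without TKO replicate 2. Each of these was low in all TKO libraries. Serpina7, thyroxine-binding globulin, had 59.9, 45.8, 40.4 and 223 CPM in Cpt2PparaDKO livers, against 2.36, 1.82, 6.904 and 3.798 CPM in TKO livers (log2 fold change 4.60, SE 0.66, adjusted p = 1.1e-04). Prelid2, a relative of mitochondrial lipid carriers, had 6.89, 10.3, 10.01 and 25.6 CPM in Cpt2PparaDKO livers, against 0.909, 0.876, 0.746 and 1.098 CPM in TKO livers (log2 fold change 3.85, SE 0.43, adjusted p = 1.8e-06). Both were highest in Cpt2PparaDKO replicate 4, and without it the log2 fold change of Serpina7 was 3.70 and that of Prelid2 3.33 (adjusted p = 6.5e-05 and 1.6e-06). Alcam and Slco2a1, a cell adhesion molecule and a prostaglandin carrier, had the smallest adjusted p among rises outside the lists, with log2 fold changes of 1.49 ± 0.12 and 1.39 ± 0.12 (adjusted p = 6.9e-09 and 4.5e-08), and Sec61b, a subunit of the translocation channel of the endoplasmic reticulum, followed (1.63 ± 0.15, adjusted p = 1.0e-07). On the other side, Rab30, a Golgi GTPase, had 9.62, 15.2, 8.04 and 10.9 CPM in Cpt2PparaDKO livers, against 293, 241, 189.9 and 166 CPM in TKO livers (log2 fold change -4.35, SE 0.36, adjusted p = 1.0e-07). Serinc2 and Chrna2 had log2 fold changes of -4.29 ± 0.24 and -3.72 ± 0.20, and Ctif, a translation initiation factor, one of -1.90 ± 0.12 (adjusted p = 1.9e-10, 3.2e-11 and 2.8e-10). Pnldc1, Caln1 and Gal3st1 completed the 15 largest falls, with means of 0.7799, 0.346 and 1.298 CPM in Cpt2PparaDKO livers, against 26.03, 9.78 and 16.6 CPM in TKO livers. The log2 fold change of Gal3st1 was -3.74 ± 0.47, and -4.34 without Cpt2PparaDKO replicate 3.

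The female-pattern library carried part of the largest rises. Cyp2a4, a cytochrome higher in female livers, had 5.74, 45.2, 117 and 2051 CPM in Cpt2PparaDKO livers, against 0.424, 0.539, 0.187 and 1.97 CPM in TKO livers (log2 fold change 9.41, SE 2.07, adjusted p = 0.0047). Replicate 4 held most of it, and without that library the log2 fold change was 6.12 (adjusted p = 0.011), with the remaining Cpt2PparaDKO libraries still above all TKO libraries. It was 10.53 without TKO replicate 4. Cyp2c69, also higher in females, had 1.79, 1.74, 2.899 and 38.3 CPM in Cpt2PparaDKO livers, against 0.364, 0.337, 0.187 and 0.595 CPM in TKO livers (log2 fold change 4.88, SE 1.64, adjusted p = 0.047), and it lost its call without replicate 4, at a log2 fold change of 2.51 (adjusted p = 0.26), and without Cpt2PparaDKO replicate 3 or TKO replicate 1, 2, 3 or 4 (adjusted p from 0.050 to 0.11). The log2 fold change of Cyp2c69 was 2.51 without both female-pattern libraries (adjusted p = 0.0057) and 2.23 with the sex pattern as a term (adjusted p = 0.027). Cyp4a12a, a male-biased omega-hydroxylase, had 65.2, 59.8, 43.4 and 0.116 CPM in Cpt2PparaDKO livers, against 348, 325, 254 and 293 CPM in TKO livers (log2 fold change -2.85, SE 0.87, adjusted p = 0.030), and replicate 4 was almost without it. Without Cpt2PparaDKO replicate 4 its log2 fold change was -2.42 (adjusted p = 0.0025), and it was -2.42 without both female-pattern libraries (adjusted p = 1.8e-08) and -2.74 with the sex pattern as a term (adjusted p = 8.1e-04). Its call was lost without Cpt2PparaDKO replicate 2 or 3 or TKO replicate 1 or 2 (adjusted p from 0.053 to 0.069). Of 13 female-biased liver genes, 2 rose and 2 fell, and of 23 male-biased ones 3 fell and 0 rose. The shares called were 30.8% and 13%, beside 19.3% of all genes called in either direction and 9.98% called lower. A single female-biased gene rose without TKO replicate 1 or 4, a single male-biased one fell without Cpt2PparaDKO replicate 3 or TKO replicate 1 or 2, and 2 male-biased ones rose without Cpt2PparaDKO replicate 4. The median log2 fold change of the female-biased list was -0.19 without replicate 4 and 1.68 with it.

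The share of called genes near the targeted loci was as follows. Within 5 Mb of Ppara, 29 of 127 other tested genes were called (22.8%), within 5 Mb of Cpt1b 17 of 68 (25%), within 5 Mb of Cpt1a 29 of 168 (17.3%) and within 5 Mb of Cpt2 9 of 60 (15%), beside 19.3% of all genes. The windows around Ppara and Cpt1b overlap on chromosome 15. Over whole chromosomes the share ran from 16.1% on X to 21.5% on 6.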

How the data were processed

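Liver RNA from 20 libraries, 4 in each of 5 groups, was sequenced, and the authors deposited raw counts per gene and, for each comparison they made, a table that holds log2 fold changes and p-values. HISAT2 and the builds GRCm39 and mm39 are named in the submitters' processing notes. The sources used here do not give the counting program, the annotation or the strand setting, so reads of overlapping and antisense genes cannot be told apart. Groups came from the sample labels. Genes were kept with filterByExpr (minimum count of 10), scaled with TMM, and tested with edgeR 4.0.16 (quasi-likelihood, robust, all 20 libraries, group as the only term, Benjamini-Hochberg adjustment, threshold 0.05) in R 4.3.3. The SE of a log2 fold change was its size over the square root of F. DESeq2 1.42.0 and limma 3.58.1 were alternatives. Named genes were the 4 targeted genes, the 15 largest non-overlapping changes on each side at a mean of at least 5 CPM, up to 6 members of each list by adjusted p, and the 3 smallest adjusted p on each side outside the lists. Further names (uncalled or oppositely moving list members, promoter matches, Plin2, Cidec) were chosen after their values were seen. Some members are not reported here. The members and lists were chosen with earlier results of these data known. Promoter sequences came from RefSeq (GRCm38.p6).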

Additional observations from a re-analysis of the deposited data

Results flagged for a closer look

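Among the genes named above, the levels of the 4 libraries of a group were checked for 1 library far from the other 3, with the gap to the nearest library taken over the range of the group and compared with the critical value of Dixon's test for 4 values. Of 328 groups of 4 examined, 27 (8.23%) held such a library, where chance flags about 1 in 20 groups. Cpt2PparaDKO replicate 4, the library with the female pattern, accounted for 17 of them. It stood above the other Cpt2PparaDKO libraries for Acot2 (118 CPM), Ccnd1 (90.4 CPM), Cd68 (112 CPM), Cyp2a4 (2051 CPM), Cyp2c69 (38.3 CPM), Krt19 (20.5 CPM), Lcn2 (202 CPM), Nqo1 (43.8 CPM), Sdf2l1 (83.5 CPM), Serpina7 (223 CPM) and Slc16a1 (70.2 CPM). It stood below them for Acad10 (18.6 CPM), Acat1 (102 CPM), Cpt1a (468 CPM), Fads2 (155 CPM), Hadhb (102 CPM) and Mogat1 (0.0776 CPM). Sex, animal and library cannot be told apart for this sample, and the part of each in the results was not tested.

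The remaining cases were spread over 5 libraries. Cpt2PparaDKO replicate 3 was lowest for Elovl6 (25.6 CPM). TKO replicate 2 was highest for Cyp2e1 (11200 CPM), Cyp4f14 (43.9 CPM) and Slco1a4 (64.9 CPM). TKO replicate 1 was highest for Mogat1 (6.54 CPM) and lowest for Hsd17b7 (87.3 CPM). TKO replicate 3 was lowest for Apcs (27.3 CPM) and Nsdhl (6.25 CPM), and TKO replicate 4 was highest for Cxcl1 (1.05 CPM) and Ero1b (31.03 CPM).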

How the results depend on the processing

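The edgeR fit called 3019 genes (1455 higher and 1564 lower in Cpt2PparaDKO), and leaving out 1 library at a time gave 2286 to 3192 called genes, 1091 to 1657 higher and 1195 to 1535 lower. Requiring an absolute log2 fold change of at least 1 left 1386 genes, 772 higher and 614 lower, which follows from the stricter rule. DESeq2 called 3524 genes, limma voom 3214, the 8 libraries alone 2741, a fit with no filter on low counts 2562, and a fit with a term for the sex pattern 3139. With the replicate number as a replicate block, 2881 genes were called over 20 libraries and 2164 over the 8 libraries. Same-numbered libraries shared little beyond their group means, with correlations of 0.0089, 0.052, 0.12 and 0.013, and not every library correlated best with its own number, so the numbers were not taken as pairs. Of 150 named genes that were called, 136 kept their direction and their call under every alternative run that gave them a value, other than the fold threshold. The other 14 kept their direction. With a minimum count of 50, 147 of the 150 had a value and kept their call, and by DESeq2 149 did, with no adjusted p for Lcn2. Krt19 and Acad9, neither of them called, turned in sign. Leaving out 1 library gave Krt19 log2 fold changes of -0.57 (without Cpt2PparaDKO replicate 4, its one high library) to 3.05, and -0.57 without the female libraries. For Acad9 it gave -0.0015 to 0.11, with -0.0019 without the female libraries and -0.0040 with the sex term, and the cause was not tested. By limma voom, Cyp2a4 had an adjusted p of 0.18. The count of respiratory chain subunits lower in Cpt2PparaDKO was 13 with the block over the 8 libraries. Depth, at 15984190 to 36452673 counts per library, limited genes of a few CPM or less.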
